A study of Arabidopsis thaliana with 4 samples.

Results

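How transcript levels differed between 12 h and 6 h after gamma-irradiation was described in wild-type Arabidopsis thaliana, as the difference between 2 microarray ratios for each probe. The members are 9254 genes, measured by the 9335 probes that carry a single gene name, of 22575 features on the array. For each probe the log2 ratio of irradiated over non-irradiated plants at 6 h was subtracted from that at 12 h, after both arrays had been scaled to one median absolute deviation. A positive difference therefore means a higher ratio at 12 h, and a negative one a lower ratio at 12 h.

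Both groups were wild-type plants of the ecotype Nossen, 4 weeks old and grown on solidified MS medium. They received 100 Gy of gamma-rays at 300 Gy/h and were frozen 6 h or 12 h later. Each time had 1 array, on which the irradiated RNA carried the red dye (Cy5) and non-irradiated wild-type RNA the green dye (Cy3). The other 2 arrays of the series held the mutants fas1-2 and fas2-2, each against wild type, and serve to show how far 2 arrays can lie apart, with a few genes' mutant ratios given beside their values. Sample labels give the tissue as rosette leaves, whereas the design text gives seedlings without roots. Nothing in the labels says whether both times shared one control RNA, whether several plants went into an extract, or when during the day plants were taken.

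Gamma-rays break both strands of DNA. In plants the kinase ATM senses such breaks and acts through the transcription factor SOG1, which switches on repair genes and inhibitors of the cell cycle, so that dividing cells halt before mitosis and may turn to endoreduplication, DNA replication without division. Irradiation also produces reactive oxygen, and the same stress genes that answer pathogens, wounding or toxic compounds are often seen to respond. Because 1 array stands for each time, no difference below was tested, no value carries an error, and the words higher and lower describe these arrays alone.

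Direction and scale rest on a reading of the deposited values as log10 of red over green, the convention of the scanner software. The sign is therefore likely, not stated in the labels. Before scaling, the median absolute deviation of the log2 ratios was 0.1388 at 6 h and 0.116 at 12 h. The 6 h values were multiplied by 0.914 and the 12 h values by 1.0941, and all ratios below are on this scaled log2 scale unless said otherwise. Where a transcript was spotted more than once (48 transcripts, 99 spots), the pooled SD between spots was 0.23 for the difference. That SD covers spot-to-spot error within arrays and neither the spread between plants nor that between RNA extractions. Along the order of features on the array, block medians of the difference ran from -0.091 to 0.075 over consecutive blocks of 215 features. Spot intensities were not used here, so a dim spot cannot be told from a bright one.

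Most probes stood at similar ratios at both times. The difference was smaller than 0.5 in size for 88.3% of probes, with a median of 0.0077 and a range from -4.63 to 4.72. Higher at 12 h, by any amount, were 51.9% of probes, the share against which counts of higher or lower members below are to be read. At least 2-fold apart between the times were 303 probes, 3.25% of all. Of these, 112 were higher at 12 h (1.2%) and 191 were lower (2.05%). The probes nearest to this bound lay at 1.0063 and 0.9989 on the higher side and at -1.0015 and -0.9996 on the lower side. Across probes, the ratios at 6 h and 12 h had a Pearson correlation of 0.3, given as a description because a shared control would raise it.

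The fas2-2 and fas1-2 arrays, scaled in the same way but to the spread of their own pair, were set beside these numbers. Between them 264 probes differed at least 2-fold (2.83%), 140 higher in fas2-2 (1.5%) and 124 lower (1.33%). The median absolute deviation of that difference was 0.1384, against 0.1302 for 12 h minus 6 h. Differences of 2-fold in both comparisons were seen for 44 probes, which is 14.5% of the 303 and 16.7% of the 264. One of them was AT3G44670, at -2.76 at 6 h and 0.72 at 12 h, but at 4.15 in fas1-2 and 0.31 in fas2-2 without scaling. The counts of the 2 pairs are not on one scale, since the mutant arrays had wider spreads before scaling (0.1466 in fas1-2 and 0.1513 in fas2-2). With all 4 arrays scaled to one spread, the irradiation pair had 138 probes higher and 214 lower at 12 h. The mutant pair was not counted in that way, so which pair differed more was not settled.

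**Figure D1:**
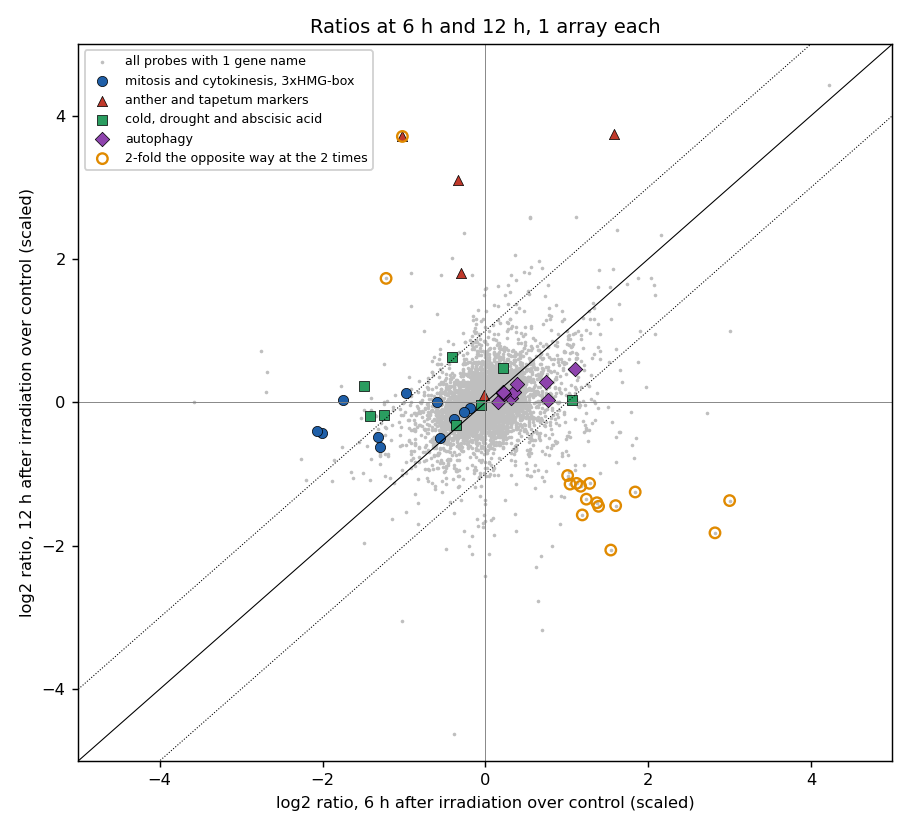
Each grey point is 1 of 9335 probes, placed by its scaled log2 ratio of irradiated over control at 6 h (x axis) and at 12 h (y axis); the solid line marks equal ratios and the dotted lines a 2-fold difference. Coloured symbols mark 4 gene groups, and open circles the 16 probes at least 2-fold from control in opposite directions, 14 of them at the lower right.

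The question put to the 2 times was which transcripts stood near control again at 12 h, which stayed away from it and which differed only later. At least 2-fold from control were 217 probes at 6 h (2.32%), 144 of them higher (1.54%) and 73 lower (0.782%), and 197 at 12 h (2.11%), 100 of them higher (1.07%) and 97 lower (1.04%). Of the 217, 96 (44.2%) lay within 0.5 of control at 12 h. In the mirrored count, of the 197 at 12 h, 91 (46.2%) lay within 0.5 of control at 6 h. The near equality of 96 and 91 depends on the scaling: without it, 129 probes were 2-fold at 6 h and near control at 12 h, against 64 the other way. A probe picked for an extreme value on one array tends to lie nearer to 0 on another through measurement error alone, in both counts. What follows is read from groups of genes and from both values of each gene.

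The times differed in direction. Of the 144 probes high at 6 h, 51 (35.4%) lay below control at 12 h, whereas of the 73 low at 6 h only 12 (16.4%) lay above it. Seen from the later time, 42 of the 97 probes low at 12 h (43.3%) had been above control at 6 h. The median of all 97 at 6 h was -0.03. For the 100 probes high at 12 h that median was 0.47, with 21 below control. At least 2-fold the same way at both times were 36 probes, 25 higher and 11 lower, and 16 were 2-fold in opposite directions, 14 of them high first and low later. The direction of these counts was not tested.

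**Figure D2:**
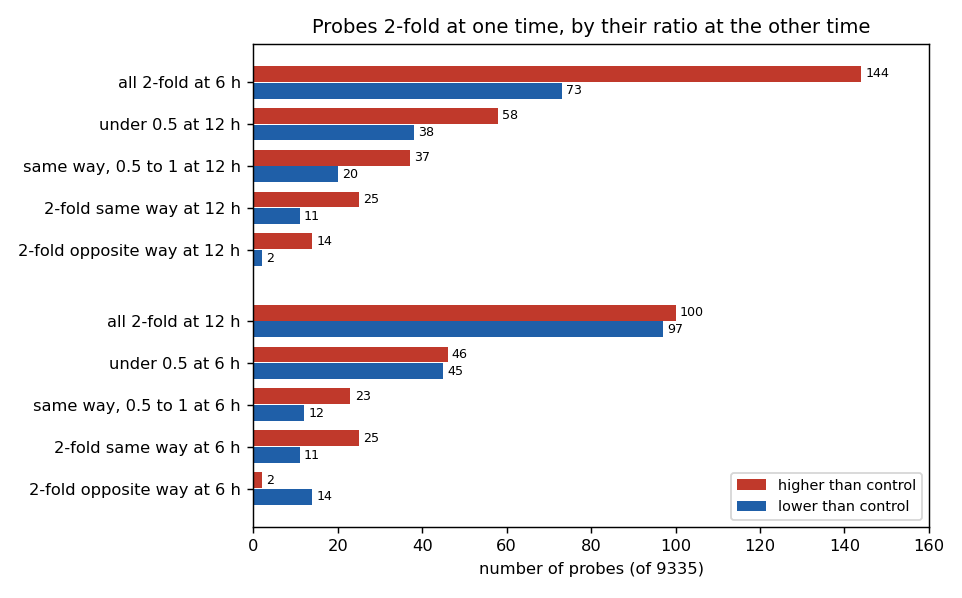
Bars count the probes whose ratio was 2-fold or more from control at 6 h (upper block) or at 12 h (lower block), and how many of them lay in each range at the other time, with red for higher and blue for lower than control at the time that heads the block. Within 0.5 of control at the other time were 58 high and 38 low probes of 6 h, and 46 high and 45 low probes of 12 h.

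Genes of cell division stood low at 6 h and near control at 12 h. In bulk RNA, fewer dividing cells and less transcript per dividing cell cannot be told apart. Of 23 loci written down for the mitosis and cytokinesis list, 9 were measured. All 9 probes were below control at 6 h, and all 9 were nearer to control at 12 h. At least 2-fold higher at 12 h were 2 of 9, against 1.2% of all probes. The list's median was -0.59 at 6 h, -0.14 at 12 h and 0.59 for the difference, beside 0.01 for the difference over all probes.

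TOPII, topoisomerase II, which untangles sister DNA before chromosomes separate, stood at -1.75 at 6 h and 0.03 at 12 h, a difference of 3.43-fold. ATSMC2, a condensin subunit that compacts mitotic chromosomes, stood at -0.97 and 0.13. KINESIN-12B, a motor of the phragmoplast that builds the new cell plate, stood at -1.32 and -0.48, so it remained below control at both times. AUR2, an Aurora kinase, was at -1.29 and -0.62, while the other measured Aurora kinases were close to control throughout, AUR1 at -0.26 and -0.14 and AUR3 at -0.19 and -0.08. Among the spindle checkpoint genes, BUB3.1 went with the first set (-0.59 and 0.00) but BUB3.2 did not (-0.56 and -0.49), and BUBR1 was near control at both times (-0.38 and -0.23).

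The pair of 3xHMG-box genes, whose proteins bind condensed chromosomes in mitosis, had the lowest 6 h values of the annotated division genes named here. 3xHMG-box2 stood at -2.07 and -0.40 and 3xHMG-box1 at -2.01 and -0.43. Of the DNA replication list 2 probes were measured: PRL, which encodes MCM7 of the replicative helicase, at -0.45 and -0.02, and ICU2, the catalytic subunit of DNA polymerase alpha, at -0.46 and 0.19. Taken as one set of 13 probes, mitosis, replication and 3xHMG-box genes were below control at 6 h in 13 of 13 cases and higher at 12 h in 13 of 13, with differences from 0.07 to 1.78. The 3xHMG-box pair joined this set after its values were seen.

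Core histones differed less. Of 14 measured probes, 11 were higher at 12 h, 0 of them by 2-fold, and 13 of 14 were nearer to control. Their median went from -0.57 at 6 h to -0.39. Histone genes of the replication-coupled kind stayed below control at 12 h: the H3.1 genes AT5G10400 (-0.87 and -0.40) and AT5G65360 (-0.62 and -0.39) and the H2B genes HTB2 (-1.20 and -0.75), HTB4 (-0.52 and -0.39), HTB1 (-0.48 and -0.24) and HTB11 (-0.32 and -0.27). HTR12, the centromeric H3 loaded in G2, instead reached control (-0.84 and -0.05). The H3.3 genes AT4G40040 (0.21 and 0.14) and AT5G10980 (0.22 and 0.14) lay slightly above control at both times. Among the 14, 5 are listed by locus only, without annotation in the tables used, the lowest being AT5G59690 at -1.41 and -0.79. AT2G28720 went the other way across control, from 0.29 to -0.40, a difference of -0.69.

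Tubulin genes lay mostly slightly below control at 6 h and slightly above it at 12 h. They encode the subunits of microtubules, which serve both the spindle and the wall-building cortex. Of 11 probes, 2 were above control at 6 h and 11 at 12 h, and 10 were higher at 12 h. None differed 2-fold, and the median difference was 0.33. The medians were -0.24 at 6 h and 0.11 at 12 h, beside SDs between repeat spots of 0.23 and 0.29 at these times. TUA2 (-0.37 and 0.28), TUA6 (-0.41 and 0.14) and TUA5 (-0.27 and 0.26) differed most. IQD proteins, calmodulin-binding proteins that sit on microtubules, were higher at 12 h in 11 of 13 cases with a median difference of 0.33. The IQD list was added after its values were seen. IQD23 was an exception, at 1.03 and 0.94.

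Some cold and drought genes were low at 6 h and near control at 12 h. Genes of this list protect membranes and proteins when water is short and are switched on by cold or abscisic acid. Of 8 probes, 3 were at least 2-fold below control at 6 h (COR15B, COR15A and KIN2). At 12 h, 7 were higher than at 6 h, 4 of them at least 2-fold (1.2% of all probes), and 1 was at least 2-fold lower (2.05% of all). COR15B stood at -1.49 and 0.23 and its neighbour COR15A at -1.42 and -0.19, both encoding small proteins of the chloroplast stroma. KIN2 stood at -1.25 and -0.18, but the adjacent gene KIN1 at -0.05 and -0.04, so the pair did not go together. COR27, a cold gene tied to the circadian clock, crossed control from -0.41 to 0.64. COR47, a dehydrin, differed little (-0.36 and -0.31), and DREB2C, a transcription factor of the DREB family, was above control at both times (0.21 and 0.48). STZ, a zinc finger repressor of stress genes, went the other way, from 1.06 to 0.03. LEA4-5, a late embryogenesis abundant protein outside the list and chosen after its values were seen, stood at -1.23 and -0.45.

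The hour of sampling could not be checked with clock genes, of which GI alone was measured, at -0.42 and -0.28. A part of time of day in the cold genes was not tested.

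Wall loosening genes were mixed. Expansins, which loosen cell walls during growth, were higher at 12 h in 10 of 15 cases, beside 51.9% of all probes, and 2 were at least 2-fold higher (1.2% of all). EXPA15 (-1.11 and 0.10) and EXPB3 (-1.21 and 0.02) stood near control at 12 h. EXPA8 (-1.42 and -1.08) and EXLB1 (-1.50 and -0.98) remained about 2-fold below it. Among 17 xyloglucan and wall polysaccharide genes, 13 were higher at 12 h, none by 2-fold, with a median difference of 0.08.

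The glucosinolate list was added after its values were seen. It gave 2 of 5 probes at least 2-fold higher at 12 h, beside 1.2% of all probes. They were AOP3, a side-chain dioxygenase (-1.36 and -0.17), and BCAT4, which starts methionine chain elongation (-1.14 and -0.10). The remaining members, GTR1, GTR2 and AOP1, differed by less than the 0.23 between repeat spots.

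**Figure D3:**
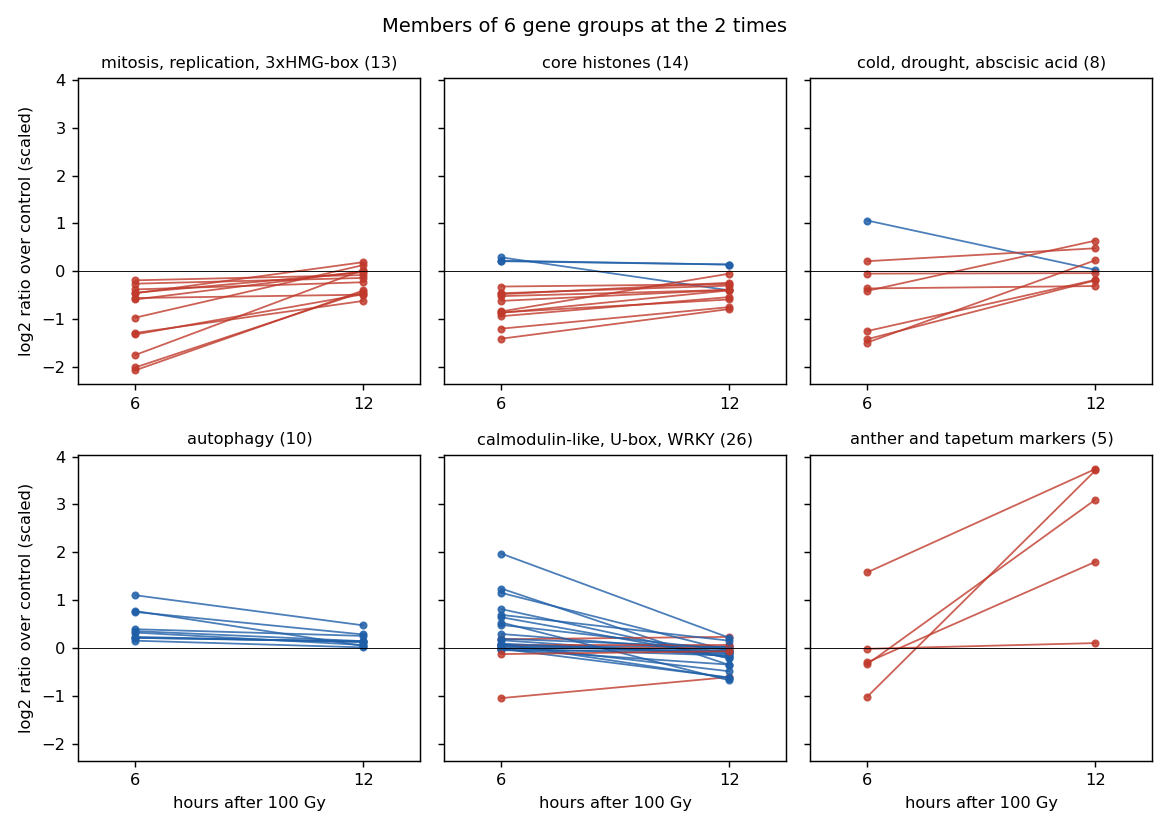
Lines join the scaled log2 ratio of each probe at 6 h and 12 h after 100 Gy, with red where the 12 h value is equal or higher and blue where it is lower; the number of probes stands in each panel title. All 13 probes of mitosis, replication and 3xHMG-box genes slope upward from below control, all 10 autophagy probes slope downward from above it, and 4 of 5 anther and tapetum markers stand more than 2-fold higher at 12 h. The 3xHMG-box, calmodulin-like and U-box genes were added after their values were seen.

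Single members of several stress, conjugation and folding families stood high at 6 h and nearer to or below control at 12 h, while most family medians were close to control at 6 h. Calmodulin-like proteins, which sense calcium, were lower at 12 h in 7 of 7 cases, 2 of them at least 2-fold, against 2.05% of all probes. This list and the U-box and ubiquitin-conjugating lists below were added after their values were seen. CML30 (-0.01) and CML23 (-0.00) hardly differed between the times. CML41 stood at 1.97 and 0.21 and CML38 at 1.15 and -0.06, while the other 5 were within 0.2 of control at 6 h, as CML42 was (-0.02 and -0.62). U-box ubiquitin ligases were lower at 12 h in 9 of 10 cases, with a median of 0.09 at 6 h and -0.15 at 12 h. PUB23 (0.53 and -0.68) and PUB22 (0.08 and -0.63), a pair of ligases that damp immune signalling, were the lowest of the 10 at 12 h. Ubiquitin-conjugating enzymes were likewise lower at 12 h in 12 of 14 cases, none by 2-fold, and 2 of 14 were above control at 12 h against 11 at 6 h.

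WRKY factors, a family that governs defence and senescence, gave 2 of 9 probes at least 2-fold lower at 12 h, beside 2.05% of all probes. The family's median was 0.07 at 6 h. WRKY53, which promotes leaf senescence, stood at 1.24 and -0.36, and WRKY6 at 0.81 and -0.22. WRKY42 stayed below control (-1.05 and -0.61). GRX480, a glutaredoxin that binds TGA factors of salicylate signalling, stood at 1.65 and -0.41. MSRB8, which repairs oxidised methionine, stood at 1.79 and -0.13, a difference of 3.79-fold, whereas MSRB4, MSRB5 and MSRB6 were below control at both times. WRKY53, WRKY6, GRX480 and MSRB8 thus lay above control at 6 h and below it at 12 h, and the other members named did not.

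UDP-glycosyltransferases attach sugars to small molecules. As a family they were at control at 6 h, with a median of 0.01 and 24 of 46 probes above it. At 12 h 29 of 46 were lower than at 6 h, 6 of them at least 2-fold, beside 2.05% of all probes, and 0 were 2-fold higher. The UGT73B genes were above control at 6 h in 5 of 5 cases and at 12 h in 2 of 5. UGT73B2 stood at 1.16 and -0.04 and UGT73B3 at 1.2 and 0.02, while their neighbour UGT73B1 stood at 0.32 and 0.45. UGT76B1, which glucosylates salicylate and isoleucic acid, stood at 1.0 and -0.47, UGT87A2 at 0.97 and -0.16 and UGT71B6 at 0.83 and -0.59. UGT72E1, which glucosylates lignin precursors, differed from these because it was near control first and low later (-0.26 and -1.79).

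Cytochrome P450 genes were lower at 12 h in 15 of 17 cases, with 10 above control at 6 h and 2 at 12 h. The count describes mostly 1 subfamily, since 14 of the 17 were CYP71B genes, with a median difference of -0.6. The members outside it differed less: CYP79A2 by -0.35, CYP78A9 by -0.30 and CYP84A4 by -0.11. CYP71B23 stood at 1.60 and -0.83, a 5.41-fold difference, CYP71B5 at 1.17 and 0.22 and CYP71B29 at 0.36 and -0.88. Genes next to CYP71B23 in the same cluster did not share its high value at 6 h, CYP71B22 being at -0.34 and -1.18 and CYP71B24 at 0.36 and -0.21. Close copies such as these may share signal on an oligonucleotide array.

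Glutathione transferases as a family showed no common direction, with 6 of 13 higher and 7 lower at 12 h. GSTF3 stood at 1.24 and -1.35, a 6.02-fold difference, and GSTU20 at -1.23 and -0.35.

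Folding genes of the endoplasmic reticulum, where secreted proteins mature, were lower at 12 h in 6 of 7 cases, none by 2-fold. This list was added after its values were seen. BIP1, the chaperone of that compartment, stood at 1.07 and 0.44, ATERDJ3B, its partner, at 0.76 and 0.08, and CRT1b, a calreticulin, at 0.53 and 0.03. BZIP60, the transcription factor that answers misfolded proteins there, stood at 0.59 and -0.23. BZIP28 was near control at both times (0.08 and 0.04).

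Autophagy genes, whose products enclose cell contents for breakdown in the vacuole, were above control at both times in 10 of 10 cases and lower at 12 h in 10 of 10. Their median went from 0.34 to 0.13. The differences ran from -0.73 to -0.07, so none reached 2-fold, and most were smaller than the SD of 0.23 between repeat spots. ATG8H (0.77 and 0.04), ATG8E (1.10 and 0.47) and APG8A (0.75 and 0.28) differed most. Vacuolar sorting genes, a list added after its values were seen, were lower at 12 h in 9 of 11 cases. VPS60.1 stood at 0.93 and 0.27 and VPS2.2 the other way at -0.67 and 0.10.

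Some probes went past control and were low at 12 h. The 14 probes at least 2-fold above control at 6 h and at least 2-fold below it at 12 h included 4 with an annotated name. OCT1, a carnitine transporter, stood at 3.0 and -1.37, a difference of 20.7-fold. Its relatives OCT4 (0.07 and -0.25) and OCT5 (-0.03 and -0.10) were near control at both times. CHI (AT2G43570), annotated as a chitinase, an enzyme that degrades fungal walls, stood at 1.54 and -2.06, or 12.1-fold apart. GSTF3 is described above, and SAL2 stood at 1.28 and -1.13. The largest difference of all probes in this direction was that of AT3G28510, which is unannotated in the tables used, at 2.82 and -1.82 (24.8-fold). AT5G52760 (1.84 and -1.25), AT2G18690 (1.60 and -1.44) and AT1G51890 (1.39 and -1.45) followed.

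Further genes with a role in immunity, chosen after their values were seen, had smaller differences of the same sign. BIK1, a kinase of pattern-triggered immunity, stood at 0.48 and -0.38, and ChiC, a second chitinase, at 0.73 and -0.33. The salicylate defence list itself could not be described, since CHI was its one measured member of 17 loci written down.

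**Figure D4:**
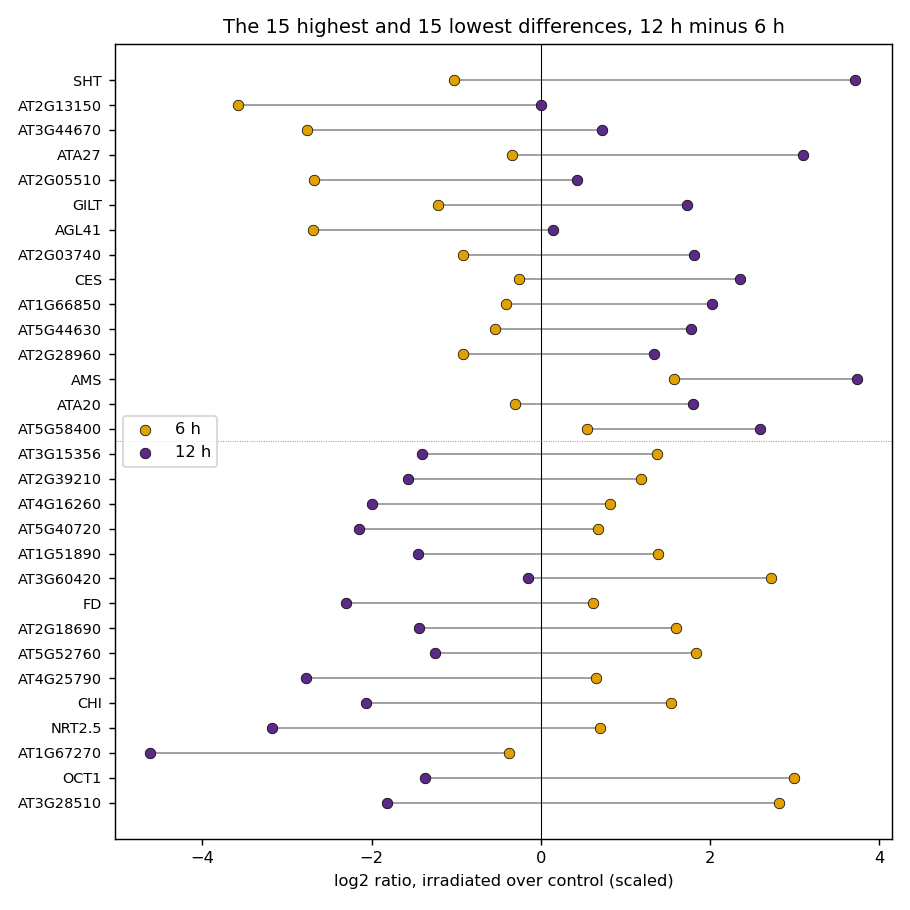
Dots give the scaled log2 ratio over control at 6 h (yellow) and 12 h (purple) for the 15 probes with the highest difference (above the dotted line) and the 15 with the lowest (below it), joined by a grey line. SHT spans -1.02 to 3.71, and AT3G28510 spans 2.82 to -1.82.

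A set of probes was low at 12 h alone. NRT2.5, a high-affinity nitrate transporter that plants use when nitrogen is scarce, stood at 0.70 and -3.18, a 14.7-fold difference. FD, the bZIP partner of the flowering signal FT, stood at 0.62 and -2.30. PDF1.2, a defensin that answers jasmonate and ethylene, lay at -0.16 and then at -1.87. Of the 20 loci written for the jasmonate and ethylene list 4 were measured, 2 higher and 2 lower at 12 h. The other members were not low at 12 h: EIN3 at 0.28 and 0.01, JMT at -0.01 and 0.21, and THI2.1 at -0.29 and 0.25. OSM34, an osmotin of the pathogenesis-related kind, stood at 0.10 and -1.85. In the unscaled mutant ratios PDF1.2 was low as well (-2.79 and -2.33), whereas OSM34 was not low in both (-0.88 and 0.75).

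Other annotated probes near control at 6 h and low at 12 h were NRPE3B, a subunit of RNA polymerase V (-0.01 and -2.42), IDH-III, an isocitrate dehydrogenase (-0.16 and -2.12), and the MADS factor AGL87 (-0.20 and -2.01). Of the 11 auxin response genes, 2 were at least 2-fold lower at 12 h, beside 2.05% of all probes: GH3.9 (-0.10 and -1.63) and IAA15 (0.01 and -1.03). Their relatives GH3.1, GH3.3 and GH3.17 stood within 0.26 of control at both times. The lowest probe at 12 h was the unannotated AT1G67270, at -0.38 and -4.62.

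Genes known from the anther were high at 12 h. The tapetum is the anther cell layer that feeds pollen and coats it, and such genes are normally silent in leaves. Of 22 marker loci written down, 5 were measured. All 5 were higher at 12 h, 4 of them at least 2-fold, against 1.2% of all probes. SHT, which joins hydroxycinnamic acids to spermidine for the pollen coat, stood at -1.02 and 3.71, the highest difference of all probes at 26.4-fold. ATA27, an anther beta-glucosidase, stood at -0.34 and 3.1 (10.8-fold), and ATA20, an anther protein, at -0.30 and 1.80 (4.26-fold).

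AMS, the bHLH factor that directs tapetum development, was above control already at 6 h (1.58) and higher at 12 h (3.74). The fifth marker, AT5G07230, listed by locus only, stayed at control (-0.02 and 0.10). None of the 7 flower organ markers had a named probe, so RNA from flower buds could not be looked for through them, and a part of flower tissue in these values was not tested. Root markers were near control at both times (EXPA18 at 0.13 and 0.09, EXPA7 at -0.21 and 0.14, PYK10 at -0.37 and 0.03). The one measured leaf marker, RCA, the activase of Rubisco, stood at -0.45 and -0.19.

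On the mutant arrays none of the 4 genes was above wild type. Unscaled, SHT was listed at exactly 0 in fas1-2 and at -0.00 in fas2-2, ATA27 at -0.62 and -1.27, ATA20 at -0.94 and -0.69, and AMS at -1.54 in fas1-2 and exactly 0 in fas2-2. An exact 0 in such files can stand for a spot with no usable signal.

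Further genes of reproduction, chosen after their values were seen, were mixed. CES, a bHLH factor also called CESTA, stood at -0.26 and 2.36. SWEET8, a sugar transporter also called RUPTURED POLLEN GRAIN1, stood at -0.08 and 0.95, and ACT12, an actin of pollen, at 0.27 and 1.12. EMS1, the receptor that specifies tapetum cells, stayed at control (-0.09 and 0.01).

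Late high values outside the anther set belonged to several functions. Serine carboxypeptidase-like genes were higher at 12 h in 18 of 22 cases, with scpl31 at -0.59 and 1.23 and SCPL43 at 0.01 and 1.60 past 2-fold (1.2% of all probes) and 1 member lower by 2-fold (2.05% of all). That list, too, was added after its values were seen. MADS factors, a family with many members silent in leaves, had no common direction (21 of 36 higher). AGL38 was high late (0.24 and 1.5). AGL41 was instead low first and near control later (-2.69 and 0.14), and AGL28 high first and near control later (1.65 and 0.45). Flavonoid genes had 3 of 5 probes higher at 12 h, none by 2-fold, among them DFR (-0.01 and 0.85), which makes leucoanthocyanidins, and CHIL (-0.15 and 0.77). GILT, a lysosomal thiol reductase, crossed from -1.22 to 1.73.

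SDH3-1, a subunit of succinate dehydrogenase, shows how far probes of a gene can disagree. One of its probes stood at 0.28 and 1.37, and the other at 0.15 and 0.01.

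A smaller set stood away from control at both times. The highest was AT3G45730, at 4.22 at 6 h and 4.43 at 12 h, with no annotation in the tables used. AT1G51130 stood at 2.16 and 2.34, AT1G10050, annotated as ATXYN2, at 1.88 and 1.73, and AT2G37240 at 2.03 and 1.73. On the low side, AT4G11290 stood at -1.49 and -1.96, AT5G62280 at -1.15 and -1.62, and EXPA8 as given above. The difference between times was under 0.5 in size for each of these. That bound depends on the scaling: without it, the difference was -0.64 for AT2G37240, -0.56 for AT3G45730 and 0.56 for EXPA8. In the unscaled fas1-2 and fas2-2 ratios AT3G45730 was high as well (2.06 and 1.33) and AT5G62280 low (-1.32 and -1.61). AT2G37240 stood at 0.84 and 1.19 there and EXPA8 at -0.20 and -0.74. Nearer to wild type were AT1G51130 (-0.13 and 0.53), AT1G10050 (0.27 and 0.33) and AT4G11290 (-0.07 and 0.16).

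SIM, which blocks cyclin-dependent kinases and favours endoreduplication, was among the persistent genes with 1.07 at 6 h and 0.95 at 12 h. It thus stayed about 2-fold above control while the mitotic genes stood nearer to control at 12 h. For the list of DNA repair and damage response genes, which includes SIM, 27 loci were written down and 6 probes measured. These 6 differed little between times, and the unmeasured loci could not be described. At 12 h 3 were higher and 3 lower, SIM among the lower, with a median of 0.12 at 6 h and 0.35 at 12 h. ATLIG4, the ligase of end joining, stood at 0.44 and 0.31. POLH, a polymerase that copies past lesions, stood at 0.05 and 0.34, and RAD9, of the checkpoint clamp, at -0.02 and 0.46. The measured set is small, as 9335 of the 22575 features carry a single name.

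Of 5 genes listed under oxidative and mitochondrial stress, 3 were lower and 2 higher at 12 h, none by 2-fold. NDB2, an alternative NADH dehydrogenase of mitochondria, stood at 0.45 and 0.16, and its relatives NDB3 at -0.14 and 0.41 and NDB1 at 0.09 and 0.21. AT2G21640 (2.07 and 1.64) and AT5G51440 (0.98 and 0.70), listed by locus only, were above control at both. Proteasome subunits RPN12a (0.55 and 0.44) and RPN12b (0.71 and 0.45) were moderately above control throughout. Photosystem genes were lower at 12 h in 5 of 7 cases with a median of -0.12 at 6 h and -0.26 at 12 h. PSBW, a small subunit of photosystem II, was the lowest of them at both times (-0.97 and -0.83), and LHCB4.3 alone crossed upward (-0.19 and 0.36).

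**Figure D5:**
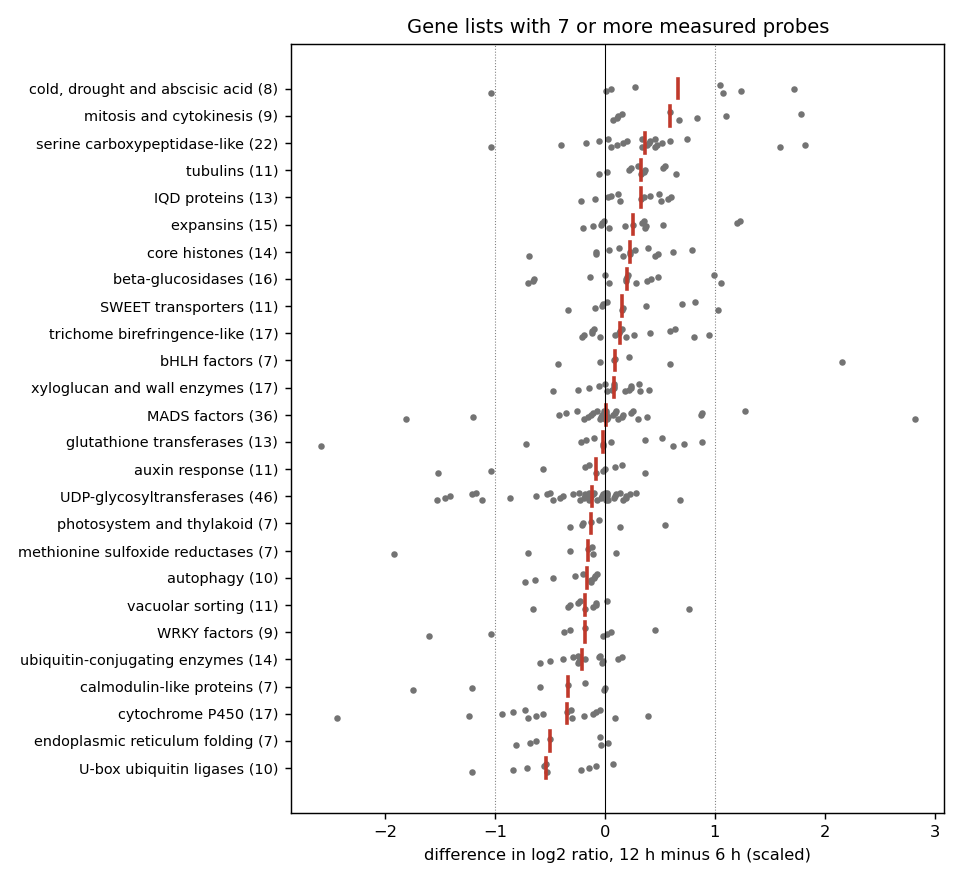
Grey dots give the difference in scaled log2 ratio, 12 h minus 6 h, for each probe of the lists with 7 or more measured probes, and red bars the list medians; dotted lines mark 2-fold. Medians run from -0.53 for the U-box ubiquitin ligases to 0.66 for the cold, drought and abscisic acid genes, beside 0.01 over all probes. Some lists, the U-box list among them, were added after their values were seen.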

How the data were processed

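The authors deposited 1 value per feature and array, read here as the log10 ratio of red over green. Per the submitters' processing notes these come from Agilent Feature Extraction, and background correction, dye normalization and version are not given in the sources used here. The deposited values of the 2 arrays ran from -1.75 to 1.51, with 245 exact zeros at 6 h and 181 at 12 h, which were kept. Multiplication by 3.3219 gave log2 ratios. The array annotation gives 1 gene name for 9335 of the 22575 features, several for 40 and none for 13200. Through gene identifiers 9317 were matched to the reference list (TAIR10.1) and 18 kept the array's name. No coordinates are given, since the array's build is not stated.

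Both arrays were multiplied to the geometric mean of their median absolute deviations (0.1269), taken over the 9335 probes. With 1 array a time no test was made, and the number of arrays limits the precision. The scaling and counting were tested on simulated data. Thresholds were 2-fold for a difference and 0.5 on the log2 scale for near control.

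Members and lists were chosen with earlier results of these data known: 36 lists first, then 12 lists by symbol after the values were seen (calmodulin-like, U-box, methionine sulfoxide reductase, carboxypeptidase-like, IQD, SWEET, vacuolar sorting, ubiquitin-conjugating, folding, 3xHMG-box, glucosinolate and trichome birefringence-like genes). Left out of the lists were 3 genes with a look-alike symbol but another function. In all, 5 lists had no named probe (flower organ markers, ribosomal proteins, MYB factors, lipid transfer proteins, aquaporins). Named genes were the 15 highest and lowest differences, the 10 highest and lowest in each pattern, all opposite probes, and list members past 2-fold or else the 4 with the largest difference; others are said to be chosen later or were named by earlier results. Alternatives were other scalings, centring, quantile normalization, zeros left out, probes averaged per gene, and other thresholds. Python 3.11.15, pandas 2.3.3, numpy 2.4.6 and matplotlib 3.10.9 were used.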

Additional observations from a re-analysis of the deposited data

Results flagged for a closer look

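In all, 16 probes were at least 2-fold from control in opposite directions at the 2 times. They were chosen by these opposite signs, each time had 1 array, and the difference was not tested. High at 6 h and low at 12 h were AT3G28510 (difference -4.63), OCT1 (-4.37), CHI (-3.60), AT5G52760 (-3.09), AT2G18690 (-3.05), AT1G51890 (-2.84), AT3G15356 (-2.76), AT2G39210 (-2.76), GSTF3 (-2.59), SAL2 (-2.41), AT3G10320 (-2.34), AT1G26420 (-2.24), AT1G35710 (-2.18) and AT5G25930 (-2.03). Low at 6 h and high at 12 h were GILT (2.96) and SHT (4.72). Some of these genes also lay far from wild type on the mutant arrays, AT1G35710 at -1.36 in fas1-2 and -2.20 in fas2-2, and AT5G52760 at -1.60 and -1.56, all unscaled.

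Outside the named probes, 594 of 13240 features were at least 2-fold apart between the times (4.49%), 194 higher and 400 lower at 12 h. They include any control spots of the array and features with several names, and they were not assigned to genes here.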

How the results depend on the processing

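No paired analysis was possible because each group held 1 array, and for the same reason no replicate could be left out. Without scaling, 104 of the 112 probes higher at 12 h and 181 of the 191 lower ones kept their 2-fold difference, among 119 and 192 in all. Without scaling, 129 probes were 2-fold at 6 h and near control at 12 h and 64 the other way, in place of 96 and 91; under the other scalings, centring, zeros and averaging these ran from 92 to 108 and from 88 to 107. Quantile normalization gave 131 higher and 174 lower probes. Scaling all 4 arrays to one spread raised the probes 2-fold the same way at both times from 36 to 55. At 1.5-fold the counts were 380 higher, 470 lower, 380 that were near control at 12 h, 349 that were near control at 6 h, 184 the same way and 58 opposite. With near control set within 0.25, 55 and 48 probes took the places of 96 and 91. Over 7 alternatives of scaling, centring, zeros and averaging, the median differences of 38 lists with 2 or more probes kept their sign, except that those of the glutathione transferases (-0.02) and MADS factors (0.01) came to 0.0 under 1 and 3 of them. Of 178 named probes, 97 differed at least 2-fold between the times, and 0 of these had another sign under them. Of the others, 4 had another sign without scaling: AT3G45730 (0.21 and -0.56 without it), AT1G51130 (0.18 and -0.22), AT4G25580 (0.08 and -0.21) and AT1G23000 (0.29 and -0.01). Quantile normalization also turned AT1G51130 (-0.18). Without scaling, 22 of 178 named probes moved by more than the 0.23 between repeat spots. Depth could not be judged, since signal over background was not used here.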
